A study of Homo sapiens with 6 samples.

Results

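Gene expression in mammary epithelial cells carrying SHP2 miR1, an inducible miR directed against the phosphatase SHP2, was compared with that in cells carrying a control miR. The comparison rests on 4 of the 6 arrays of the series, the 2 titled SHP2 miR1 and the 2 titled CTRL miR, and on 18377 genes, those with a probe set of exactly 1 gene symbol (the brightest one where a gene had several). All groups were MCF10A-HER2/3 cells, a derivative of the non-tumorigenic human breast line MCF10A whose name refers to the receptors HER2 and HER3. They were grown in three-dimensional culture for 15 days in medium holding hydrocortisone, EGF, cholera toxin, insulin and horse serum, and controls and knockdown cultures alike received doxycycline to switch on the lentiviral miR. RNA was hybridised to Affymetrix HuGene-1_0-st-v1 arrays, which carry probes along the whole transcript. The other 2 arrays of the series hold a second miR against the same gene, SHP2 miR2, and entered the fit only through the estimate of spread and through a direct test described last. The labels do not say whether a group's 2 replicates were separate cultures, and p-values therefore reflect array-to-array spread alone, possibly technical.

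SHP2, encoded by PTPN11, is a cytoplasmic tyrosine phosphatase that docks through its SH2 domains on activated receptors and on scaffold proteins such as GAB1. It is best known as a positive element of receptor signalling that helps growth factor receptors, the ERBB family among them, activate RAS and through it the ERK kinases. Genes that ERK signalling switches on include its own inhibitors, the Sprouty proteins and the dual-specificity phosphatases, and their RNAs are widely used as readouts of the pathway.

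Values are the authors' processed values on a log2 scale, so a difference of 1 is a 2-fold difference in signal. PTPN11 read 7.96 and 8.44 on the control arrays (replicates 1 and 2) and 6.04 and 5.71 with SHP2 miR1. Both SHP2 miR1 arrays lay below both controls, in the direction of their label, a difference of -2.32 on average (SE 0.22, adjusted p = 0.000548), a ratio of 5.003. Every adjusted p given here comes from 1 limma fit with Benjamini-Hochberg adjustment over all 18377 genes, and a gene is said to have risen or fallen where it was under 0.05.

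Of the 18377 genes, 1581 (8.6%) passed that threshold, 489 (2.66%) higher and 1092 (5.94%) lower with SHP2 miR1. The median difference of all genes was 0.04. The largest rise was that of LTF, the iron-binding milk and mucosal protein lactoferrin, which read 4.62 and 4.60 on the control arrays and 10.48 and 10.31 with SHP2 miR1, a difference of 5.78 (SE 0.24, adjusted p = 2.24e-05). The largest fall was that of RHCG, an ammonia transporter of epithelia, from 8.43 and 8.30 to 4.47 and 4.77, a difference of -3.75 (SE 0.21, adjusted p = 5.27e-05). For both genes the arrays of 1 group lay close together beside the distance between the groups.

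**Figure D1:**
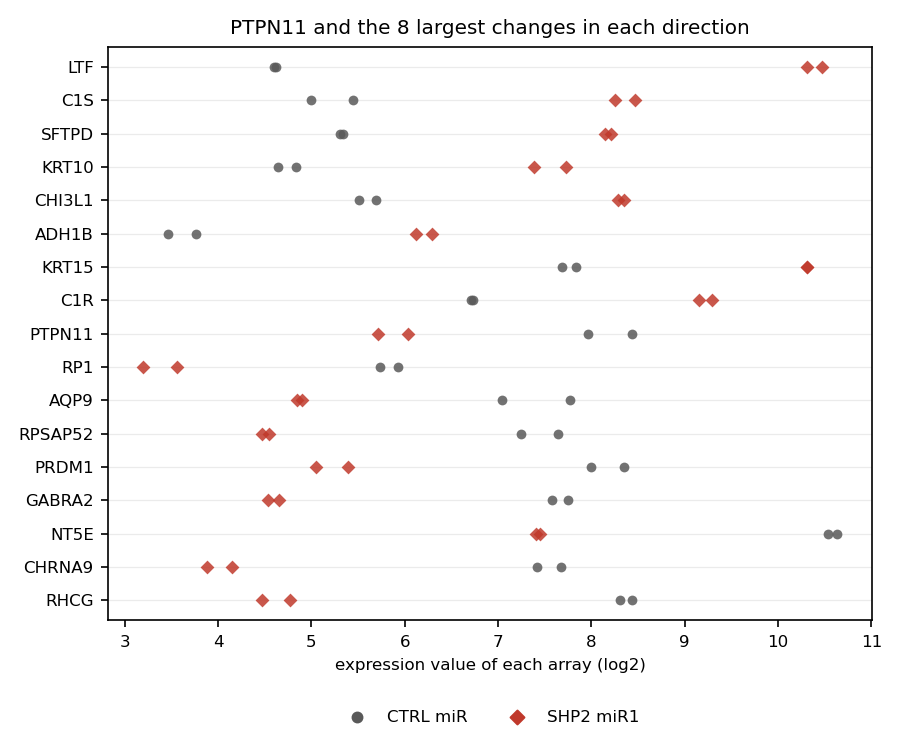
Expression value on each control array (circles) and each SHP2 miR1 array (diamonds), on a log2 axis, of PTPN11 and of the 8 genes with the largest rise and the 8 with the largest fall. LTF is the farthest apart, at 4.62 and 4.60 against 10.48 and 10.31. The 2 groups do not overlap for any of these 17 genes, but all except PTPN11 were taken only from genes without overlap. Of all genes tested, 59.4% did not overlap.

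The array of control replicate 2 stood apart from the SHP2 miR1 arrays more than control replicate 1 did (r over genes of 0.958 and 0.960, against 0.971 and 0.972), while replicates of each group correlated at 0.986. Without control replicate 1, control replicate 2, SHP2 miR1 replicate 1 or SHP2 miR1 replicate 2, in this order here and below, 1169, 269, 465 and 473 genes passed the threshold. The count fell most without control replicate 2. The gene lists, and the members named from them, were chosen with earlier results of these data known, so their shares are a description only. Some genes are marked below as chosen or named after their values were seen. Such marks do not mean that the other genes were fixed beforehand. Most list counts below are followed by those with each array left out in the same order. Others are followed by the adjusted p of the few members over the arrays left out, or stand alone. Genes named below as having risen or fallen kept their call with each of the 6 arrays left out in turn, unless values over the arrays left out say otherwise. For all of them both SHP2 miR1 arrays lay beyond both controls, so the groups did not overlap.

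Cells on all 4 arrays kept the mixed basal and luminal keratins for which MCF10A is known. KRT5, a basal keratin, read 10.97 and 11.10 on the control arrays and 11.34 and 11.48 with SHP2 miR1, and KRT8 and KRT18, the luminal pair, read between 10.50 and 11.04 on every array. None of these 3 passed the threshold, and neither did the epithelial adhesion genes CDH1 (7.90 and 7.89 against 7.78 and 7.92) and EPCAM (6.01 and 5.91 against 5.90 and 6.36). Of 6 basal markers KRT14 rose and LAMB3 fell, and their summed values were 61.2 and 61.0 on the control arrays and 60.5 and 60.6 with SHP2 miR1. The 6 luminal markers, none past the threshold by limma (unadjusted p under 0.05 for 1), summed to 53.5 and 53.4 against 54.3 and 55.1. Hormone receptor genes were dim, with ESR1 at 4.20 and 4.41 against 4.99 and 4.58 and PGR at 3.50 and 3.97 against 3.80 and 3.72. Of 9 fibroblast, 6 adipocyte and 5 smooth muscle markers none passed the threshold by limma (unadjusted p under 0.05 for 1, 0 and 1). Their summed values were 46.7 and 46.5 against 46.7 and 46.5 for fibroblasts, 26.8 and 26.3 against 28.0 and 27.1 for adipocytes, and 28.7 and 28.2 against 28.8 and 28.7 for smooth muscle. Of 8 leukocyte markers CSF1R and CD68 fell and CD14 rose, and the summed values of the 8 were 42.9 and 42.4 on the control arrays and 43.6 and 42.9 with SHP2 miR1. Of 8 endothelial markers TEK fell while KDR and PECAM1 rose, and the summed values of the 8 were 36.9 and 36.6 against 36.4 and 37.4. Over the alternative processing settings given last, the rises of KDR and PECAM1 were 0.45 to 0.60 and 0.19 to 0.65. Both lost their call under several of these settings, and PECAM1 also with the probe sets of a gene averaged. No marker was at 0, since the log2 values have no zero. The calls of CSF1R, CD68, CD14, KDR and PECAM1 were lost without at least 1 array (adjusted p = 0.0107 to 0.0924, 0.0377 to 0.14, 0.0248 to 0.169, 0.0602 to 0.154 and 0.0504 to 0.219 over the arrays left out), and whether other cells had a part in any result was not tested. In RNA from whole cultures, fewer cells of a type and less RNA per cell cannot be told apart.

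Most changes were moderate. Of the 489 genes that rose, 139 differed by less than 0.7 log2 units, 227 by 0.7 to 1, 85 by 1 to 1.5, 22 by 1.5 to 2, 14 by 2 to 3 and 2 by more than 3. Of the 1092 that fell, the same classes held 257, 523, 237, 48, 23 and 4 genes. The median difference was 0.79 among the genes that rose and -0.84 among those that fell, and the smallest difference that passed was 0.54. Of the genes that passed, 69.1% were lower, a share that was 80.3% after every array was centred on its median. For all 1581 genes the 2 SHP2 miR1 arrays lay on the same side of both controls, as they did for 59.4% of all genes tested.

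**Figure D2:**
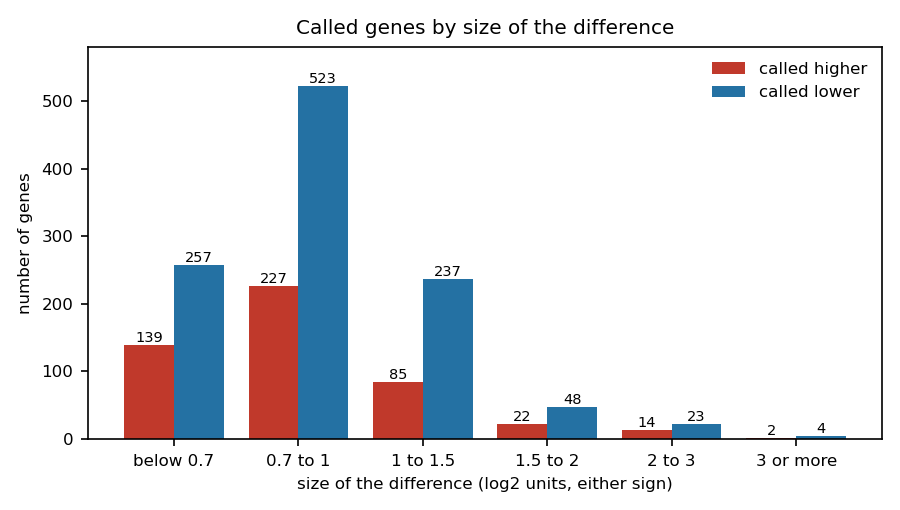
Number of genes past the threshold in each class of difference (log2 units, SHP2 miR1 minus CTRL miR), for genes that rose and genes that fell. The class of 0.7 to 1 is the most filled in both directions, with 227 and 523 genes, and 2 and 4 genes differ by more than 3.

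Genes that fell were brighter and longer than genes that rose. Split by mean level over all 6 arrays into 4 equal parts from dim to bright, 68, 133, 154 and 134 genes rose and 28, 191, 451 and 422 fell. The median difference of all genes in these parts was 0.13, 0.14, -0.09 and -0.12. The SD over probe sets also moved with the group, at 1.99 and 2.02 on the control arrays and 1.92 and 1.92 with SHP2 miR1. Genes that fell had a median genomic span of 62.5 kb, against 15.9 kb for genes that rose and 23.2 kb for genes that did not pass (RefSeq table of GRCh38.p14). The part of level, spread and span in the calls was not tested.

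**Figure D3:**
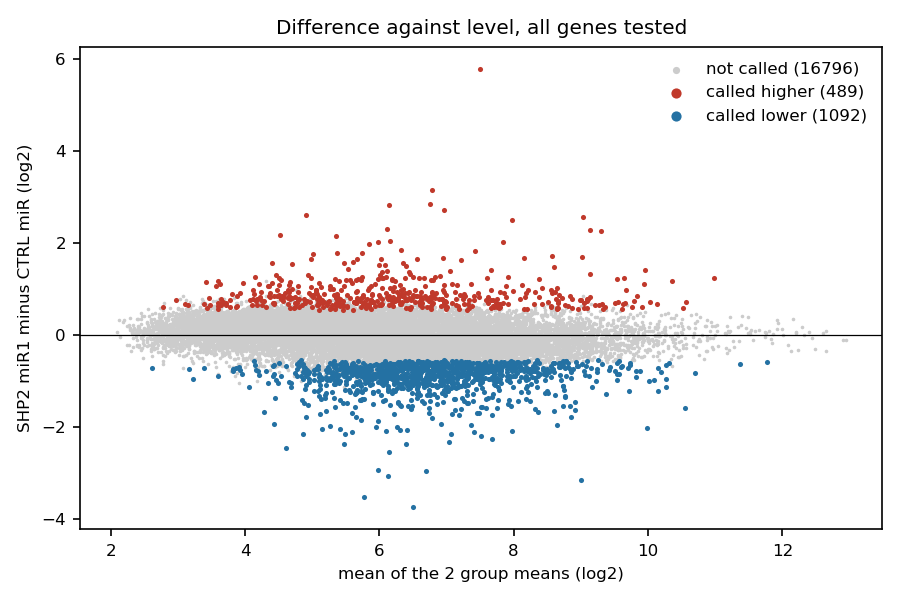
Difference (SHP2 miR1 minus CTRL miR, log2) against the mean of both group means (log2) for 18377 genes, with the 489 that rose in red and the 1092 that fell in blue. Most of the genes that fell lie at mid to high levels, and the highest point, at 5.78, is LTF.

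Of 23 genes known to be induced by ERK signalling, 15 fell and 0 rose, with a median difference of -0.92 beside 0.04 for all genes. SPRY4, a Sprouty protein that restrains receptor signalling to RAS, read 7.63 and 7.56 on the control arrays and 5.26 and 5.16 with SHP2 miR1, a difference of -2.38 (SE 0.14, adjusted p = 6.59e-05). DUSP4 and DUSP6 encode phosphatases that switch off ERK itself. DUSP4 read 7.50 and 7.58 against 6.11 and 5.78 and fell by 1.60 (SE 0.16, adjusted p = 0.000889). DUSP6 read 8.22 and 8.74 against 7.16 and 6.96 and fell by 1.42 (SE 0.19, adjusted p = 0.00369). For these genes the distance between the groups exceeded the distance between the arrays of either group. PHLDA1, which feeds back on receptor kinases, read 7.76 and 7.74 against 6.56 and 6.65 and fell by 1.14 (SE 0.15, adjusted p = 0.00261). EGR1, an immediate early factor, fell by 1.10 (SE 0.17, adjusted p = 0.00787), with an adjusted p of 0.0814 without control replicate 2 and 0.0536 without SHP2 miR1 replicate 2. With each array left out in turn, 10, 6, 11 and 6 genes of the list were lower.

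The window around the start of SPRY4, the list's member of smallest p, is shown because it is the clearest of these readouts (RefSeq, GRCh38.p14, chr5:142324198-142324497, minus strand, 300 bases around the start, mostly before it, written on the gene's strand).
SPRY4: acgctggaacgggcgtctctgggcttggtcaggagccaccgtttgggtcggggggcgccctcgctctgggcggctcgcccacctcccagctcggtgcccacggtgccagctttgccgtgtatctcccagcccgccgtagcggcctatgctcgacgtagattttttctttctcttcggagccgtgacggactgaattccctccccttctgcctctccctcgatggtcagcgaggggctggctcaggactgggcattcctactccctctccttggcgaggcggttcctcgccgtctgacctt
It was searched on both strands for 5 motifs: the AP-1 site TGANTCA, the ETS core CCGGAAG, the hypoxia element core ACGTG, the FOXO site GTAAACA and the interferon element TTTCNNTTT, where N is any base. No match stands in it, which says nothing of the factors. The motifs occur in 7.76%, 10.7%, 21.6%, 3.41% and 10.6% of the 27305 promoters of this length in the table. Promoters were found for 371 of the 489 genes that rose and 902 of the 1092 that fell, and motif shares were not compared between them because too few of the former matched.

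Upstream of these readouts stands the RAS to ERK cascade. Of 23 SHP2 partners and cascade genes 6 fell and 0 rose (median -0.36), a count of 6, 1, 1 and 2 with each array left out. The member of smallest p was MAP2K1, the kinase MEK1 that phosphorylates ERK, at 9.30 and 9.27 against 8.29 and 8.06, a difference of -1.11 (SE 0.16, adjusted p = 0.00479). MAP4K4, a kinase of the JNK branch and not a member of that list, fell further, from 9.72 and 9.78 to 7.86 and 8.05, a difference of -1.796 (SE 0.15, adjusted p = 0.000384). Of 23 other protein tyrosine phosphatases 5 fell and 1 rose (0, 0, 0 and 1 higher and 3, 1, 1 and 1 lower with each array left out). PTPN12, which dephosphorylates adhesion and receptor kinases, was the one of smallest p, at 8.01 and 8.06 against 6.67 and 6.83, a difference of -1.29 (SE 0.15, adjusted p = 0.00185).

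Among the ERBB receptors and their ligands, 5 of 14 fell and 0 rose, or 4, 3, 3 and 3 lower with each array left out. They include 3 ligands and both receptors that the cells are named for. EREG, epiregulin, read 8.31 and 8.37 against 6.42 and 6.36 and fell by 1.95 (SE 0.15, adjusted p = 0.000305), and TGFA, transforming growth factor alpha, read 7.89 and 7.95 against 6.52 and 6.58 and fell by 1.37 (SE 0.14, adjusted p = 0.00108). Of the receptors, ERBB3 read 9.67 and 9.54 against 8.09 and 8.05 and fell by 1.54 (SE 0.15, adjusted p = 0.000617), while ERBB2 read 9.66 and 9.61 against 9.02 and 8.98 and fell by 0.64 (SE 0.15, adjusted p = 0.031). The call of ERBB2 was lost without each of the 4 arrays of the comparison (adjusted p = 0.0807, 0.149, 0.131 and 0.132), and in cells named for HER2 and HER3 an introduced transcript cannot be told from the cells' own. EGFR did not pass, at 7.98 and 7.82 against 7.85 and 7.99. EPGN, epigen, made up the fifth, with a difference of -1.07 (adjusted p = 0.0258, and 0.17, 0.0561 and 0.112 without control replicate 2 and each SHP2 miR1 array).

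Among other receptor tyrosine kinases 1 of 22 rose and 2 fell, 13.6% past the threshold beside 8.6% of all genes. The one that rose was FGFR3, a fibroblast growth factor receptor, from 5.56 and 5.61 to 6.88 and 6.72, by 1.22 (SE 0.16, adjusted p = 0.00261). The others were MET, the receptor for hepatocyte growth factor, and AXL, which fell by 0.71 and 0.71 (adjusted p = 0.0237 and 0.0205, and 0.0379 to 0.166 and 0.0327 to 0.134 over the arrays left out). The 22 do not include TEK and KDR, receptor kinases counted above as endothelial markers. TEK fell further, by 2.16 (adjusted p = 0.000134), and KDR rose by 0.60 (adjusted p = 0.0418), a call that was not stable. EPHA2, a receptor for ephrin-A ligands that is also an ERK readout, fell from 8.39 and 8.11 to 7.28 and 7.20, a difference of -1.01 (SE 0.16, adjusted p = 0.00708). EFNB2, a membrane-bound ephrin ligand, fell from 7.55 and 7.62 to 5.83 and 5.95, a difference of -1.69 (SE 0.15, adjusted p = 0.000476).

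ETS transcription factors, many of which are ERK targets or substrates, changed in both directions: 4 of 25 rose and 6 fell. EHF and ETS2 rose. EHF, an epithelial ETS factor, read 4.37 and 4.21 against 6.31 and 6.55, a difference of 2.14 (SE 0.18, adjusted p = 0.000329). ETS2 read 6.79 and 6.85 against 8.86 and 8.84, a difference of 2.03 (SE 0.15, adjusted p = 0.000241). ETS1, its close relative, went the other way, from 6.90 and 6.86 to 5.73 and 5.89, a difference of -1.07 (SE 0.15, adjusted p = 0.0039). With each array left out, 3, 2, 2 and 2 members were higher and 4, 1, 4 and 2 lower.

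Several factors outside the ETS family fell. PRDM1, the repressor BLIMP1, had one of the largest falls of all genes, from 7.999 and 8.35 to 5.39 and 5.05, a difference of -2.95 (SE 0.19, adjusted p = 8.79e-05). KLF7, a Krüppel-like factor, fell from 8.12 and 7.996 to 6.37 and 6.26, a difference of -1.74 (SE 0.15, adjusted p = 0.000394), and 4 of 18 factors of its family fell with 0 higher (2, 1, 1 and 1 lower with each array left out). Of 20 AP-1 and EGR family genes 4 fell and 0 rose, with 2, 0, 1 and 1 lower when each array was left out. EGR1, given above, was 1 of them. STAT4, a cytokine-activated factor, fell from 6.98 and 7.55 to 5.14 and 5.38, a difference of -2.003 (SE 0.20, adjusted p = 0.000872). MYC did not pass the threshold, at 9.44 and 9.63 against 9.32 and 9.40, and neither did any of the 13 genes of the MYC network (unadjusted p under 0.05 for 1). Among clock genes NFIL3, a repressor of the clock output, rose by 1.27 (SE 0.15, adjusted p = 0.002), and BHLHE40, a repressor of the core clock, fell by 1.12 (SE 0.16, adjusted p = 0.00385).

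Of 27 hypoxia and glycolysis genes 12 fell and 0 rose (median -0.43), and the count was 10, 5, 7 and 7 with each array left out. SLC2A3, the glucose transporter GLUT3, read 7.49 and 7.40 on the control arrays and 5.26 and 5.51 with SHP2 miR1, a difference of -2.06 (SE 0.16, adjusted p = 0.000305). ANGPTL4, a secreted inhibitor of lipoprotein lipase, read 9.69 and 9.57 against 7.80 and 7.54, a difference of -1.96 (SE 0.16, adjusted p = 0.000326). ENO2, a glycolytic enolase, fell from 7.78 and 7.59 to 6.17 and 6.27, a difference of -1.46 (SE 0.16, adjusted p = 0.00117). Low oxygen and the factor HIF are known to induce these genes, of which SLC2A3 and ENO2 serve glucose uptake and glycolysis. CA12, a membrane carbonic anhydrase, was bright on all arrays and fell from 10.76 and 10.78 to 9.51 and 9.57, a difference of -1.23 (SE 0.14, adjusted p = 0.00177). VEGFA, the vascular growth factor, fell from 8.31 and 8.46 to 7.23 and 7.15, a difference of -1.20 (SE 0.15, adjusted p = 0.00231). For each of these 5 genes the lower control array lay above the higher SHP2 miR1 array, as it did for every gene that fell.

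ANGPTL4 was the member of smallest p with a promoter in the table (SLC2A3 had none), and its window is shown for the hypoxia element that stands in it in capitals, on the strand opposite to the letters searched (RefSeq, GRCh38.p14, chr19:8363905-8364204, plus strand).
ANGPTL4: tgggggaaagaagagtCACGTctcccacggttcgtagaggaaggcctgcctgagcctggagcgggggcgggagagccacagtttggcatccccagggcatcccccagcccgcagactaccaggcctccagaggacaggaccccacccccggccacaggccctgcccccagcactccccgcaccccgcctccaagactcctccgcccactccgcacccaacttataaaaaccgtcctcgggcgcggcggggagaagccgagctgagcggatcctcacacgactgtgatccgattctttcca
Those 5 letters occur in 21.6% of all promoters, so the match is a description only.

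Other metabolic groups split. Of 27 detoxification and retinoid genes 8 rose and 2 fell, and the number higher was 8, 8, 7 and 8 with each array left out. ADH1B, an alcohol dehydrogenase that also oxidises retinol, rose from 3.46 and 3.76 to 6.13 and 6.29, by 2.60 (SE 0.18, adjusted p = 0.000188). Its neighbours ADH1A and ADH1C, which are close copies and may share probes with it, rose by 1.57 and 1.55. CYP1B1, a cytochrome P450 of the aryl hydrocarbon response, rose from 4.91 and 5.02 to 7.20 and 7.31, by 2.29 (SE 0.18, adjusted p = 0.000305). That response is driven by the ligand-activated factor AHR, which was chosen after its value was seen. Whether the response changed was not tested, and TIPARP, also one of its genes, fell (below). AHR rose from 5.16 and 5.49 to 6.82 and 6.88, by 1.52 (SE 0.16, adjusted p = 0.0012). CYP4B1 and ALDH3A1, a second P450 and an aldehyde dehydrogenase, rose by 1.78 (SE 0.18, adjusted p = 0.000875) and 1.65 (SE 0.15, adjusted p = 0.000529). Not all members moved this way: DHRS3 and TIPARP, named because they were the exceptions, fell by 1.12 and 0.81 (adjusted p = 0.00285 and 0.0172, and 0.00701 to 0.032 and 0.0283 to 0.14 over the arrays left out).

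In lipid metabolism ACSL5, which activates long-chain fatty acids, rose from 4.85 and 4.87 to 6.58 and 6.69, by 1.78 (SE 0.15, adjusted p = 0.000331). MSMO1, an enzyme of cholesterol synthesis, fell from 9.80 and 9.65 to 8.57 and 8.63, a difference of -1.13 (SE 0.17, adjusted p = 0.00529), and 3 of 17 genes of that pathway fell with 0 higher (2, 1, 1 and 1 lower with each array left out). VLDLR, a lipoprotein receptor, fell from 6.43 and 6.65 to 4.66 and 4.86, a difference of -1.78 (SE 0.16, adjusted p = 0.000529). These 3 belong to different branches of lipid handling. In amino acid supply 3 of 25 genes rose and 2 fell (median -0.003). SLC7A5, the light chain of the leucine transporter LAT1, rose from 9.04 and 9.02 to 10.29 and 10.25, by 1.24 (SE 0.14, adjusted p = 0.0016). Of 19 genes of the unfolded protein response 5 fell and 0 rose (median -0.45), a count of 2, 1, 1 and 1 with each array left out. The member of smallest p was ERO1A, which oxidises proteins in the endoplasmic reticulum, with 9.09 and 9.21 against 7.81 and 7.96, a difference of -1.26 (SE 0.16, adjusted p = 0.00229). Of 22 respiratory chain genes 1 rose, UQCRC1 of complex III by 0.58 (adjusted p = 0.0454, and 0.0614 to 0.246 over the arrays left out), and 0 fell. ME1, the malic enzyme that supplies NADPH and belongs to the NRF2 list, fell from 8.71 and 8.82 to 7.55 and 7.68, a difference of -1.15 (SE 0.15, adjusted p = 0.00282). That list went both ways, with 2 of 23 genes higher and 2 lower (median 0.10).

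Some genes of matrix attachment and of the mesenchymal state fell. Of 19 integrins 7 fell and 0 rose (median -0.20), with 5, 1, 1 and 2 lower as each array was left out. ITGA5, the alpha subunit of the fibronectin receptor, was among the brightest genes that fell, reading 11.05 and 10.93 on the control arrays and 8.95 and 8.98 with SHP2 miR1, a difference of -2.03 (SE 0.16, adjusted p = 0.000326). FN1, fibronectin itself, fell from 8.76 and 8.82 to 7.78 and 7.66, a difference of -1.07 (SE 0.15, adjusted p = 0.00378). LAMB3, a chain of the laminin that anchors basal cells, fell from 11.40 and 11.29 to 9.77 and 9.72, a difference of -1.60 (SE 0.15, adjusted p = 0.000603).

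Of 33 EMT factors and mesenchymal genes 10 fell and 2 rose (median -0.37), and 7, 5, 5 and 5 were lower with each array left out. SNAI2, the transcription factor SLUG, read 8.29 and 8.36 against 6.62 and 6.64 and fell by 1.69 (SE 0.18, adjusted p = 0.00111). LOXL2, which cross-links collagen, read 9.48 and 9.39 against 8.09 and 8.08 and fell by 1.35 (SE 0.17, adjusted p = 0.00264). FBN1, the microfibril protein fibrillin, fell by 1.21 (SE 0.15, adjusted p = 0.002). The rises on this list were S100A4 (0.56), a mesenchymal calcium-binding protein, and OVOL1 (0.78), an epithelial repressor, which was named after its value was seen. Both lost their call without at least 1 array (adjusted p = 0.0624 to 0.194 and 0.0258 to 0.144 over the arrays left out).

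In the TGF-beta and activin list 8 of 29 genes fell and 1 rose (median -0.25), and 6, 2, 4 and 5 fell with each array left out. INHBA, the subunit of activin A, read 6.29 and 6.06 against 4.14 and 4.11 and fell by 2.05 (SE 0.31, adjusted p = 0.00617), with an adjusted p of 0.0626 without control replicate 2. SKIL and PMEPA1 are induced by TGF-beta and restrain SMAD signalling. SKIL fell from 7.73 and 7.66 to 5.81 and 5.95, a difference of -1.81 (SE 0.15, adjusted p = 0.000326), and PMEPA1 from 7.04 and 7.36 to 5.86 and 5.96, a difference of -1.29 (SE 0.17, adjusted p = 0.00267). TGFBR3, the co-receptor betaglycan, was the exception, rising from 3.88 and 4.38 to 5.72 and 6.06, by 1.76 (SE 0.21, adjusted p = 0.00177).

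NT5E, the ecto-enzyme CD73 that makes adenosine and is also counted among YAP and TAZ targets, fell from 10.54 and 10.63 to 7.44 and 7.40, a difference of -3.16 (SE 0.15, adjusted p = 3.88e-05). It was the brightest of the genes that fell by more than 3, and its 4 values lay within 0.1 of the other value of their group. Other genes of the YAP and TAZ list that fell were F3, tissue factor, from 9.18 and 9.06 to 7.56 and 7.46, a difference of -1.61 (SE 0.15, adjusted p = 0.000677), and ASAP1, a regulator of ARF GTPases and adhesions, a difference of -1.24 (SE 0.15, adjusted p = 0.002). Of 26 members 6 fell and 2 rose, with 1, 0, 0 and 0 higher and 4, 3, 4 and 4 lower when each array was left out.

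Extracellular proteases and their inhibitors changed by member. ADAMTS6, a secreted metalloprotease, fell from 5.84 and 6.11 to 4.30 and 4.22, a difference of -1.72 (SE 0.16, adjusted p = 0.000529), and 5 of 26 genes of its class fell with 0 higher (2, 1, 1 and 2 lower with each array left out). PLAU, urokinase, fell from 8.32 and 8.27 to 7.02 and 6.84, a difference of -1.37 (SE 0.15, adjusted p = 0.00133). SERPINB5, the epithelial serpin maspin, fell from 10.31 and 10.34 to 9.04 and 9.15, a difference of -1.23 (SE 0.15, adjusted p = 0.00199). The serpins did not move one way. SERPINA3, a secreted acute-phase serpin, rose instead, from 9.12 and 9.37 to 10.57 and 10.73, by 1.41 (SE 0.16, adjusted p = 0.0015). SPINK6, an inhibitor of kallikreins, fell from 6.39 and 6.94 to 4.50 and 4.06, a difference of -2.38 (SE 0.22, adjusted p = 0.000529). SERPINB7 fell as well, a difference of -1.36 (SE 0.20, adjusted p = 0.00552). At the cell surface SULF1, which trims sulfate from heparan chains, rose by 1.30 (SE 0.16, adjusted p = 0.002), and FUT8 and B3GNT2, glycosyltransferases of the Golgi, fell by 1.42 (SE 0.14, adjusted p = 0.000871) and 1.71 (SE 0.16, adjusted p = 0.000562).

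Keratins and other genes of squamous differentiation rose in part. KRT10, a keratin of suprabasal cells, read 4.84 and 4.64 on the control arrays and 7.38 and 7.73 with SHP2 miR1, a rise of 2.82 (SE 0.20, adjusted p = 0.000189). KRT15, a basal keratin, read 7.69 and 7.83 against 10.31 and 10.32, a rise of 2.56 (SE 0.15, adjusted p = 5.27e-05), and KRT16, which has close copies that may share its probes, read 8.16 and 7.82 against 10.23 and 10.33, a rise of 2.29 (SE 0.16, adjusted p = 0.000189). These 3 mark different layers of squamous epithelia. KRT14, the partner of KRT5, rose from 9.85 and 9.69 to 10.93 and 10.96, by 1.17 (SE 0.17, adjusted p = 0.00455), with an adjusted p of 0.0585 without control replicate 2. CASP14, a caspase of the outer epidermis, went the other way, from 7.33 and 6.97 to 4.995 and 5.13, a difference of -2.08 (SE 0.17, adjusted p = 0.000326). Of 28 suprabasal and cornified envelope genes 4 rose and 2 fell (4, 2, 3 and 3 higher and 1, 1, 1 and 1 lower with each array left out).

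Of 14 desmosome genes 3 rose and 0 fell (median 0.24), and 1, 1, 1 and 0 were higher with each array left out. The risen members were DSC3, DSG3 and DSP, a desmosomal cadherin of each class and the plaque protein desmoplakin, by 0.93, 0.77 and 0.65 (adjusted p = 0.00812, 0.0344 and 0.0359). Each lost its call without at least 1 array (adjusted p = 0.0163 to 0.0536, 0.0488 to 0.157 and 0.0539 to 0.147 over the arrays left out). CLDN12, a tight junction claudin, fell from 7.77 and 7.85 to 6.32 and 6.51, a difference of -1.40 (SE 0.15, adjusted p = 0.00119). Tight junction and polarity genes went both ways, with 3 of 26 higher and 2 lower (median 0.11). FXYD3, a regulator of the sodium pump, rose from 8.96 and 8.88 to 10.08 and 10.20, by 1.22 (SE 0.15, adjusted p = 0.00217).

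Secreted defence proteins held several of the largest rises. Besides LTF, SFTPD, the collectin surfactant protein D, rose from 5.31 and 5.34 to 8.21 and 8.15, by 2.86 (SE 0.14, adjusted p = 3.88e-05). CHI3L1, a secreted chitinase-like glycoprotein, rose from 5.70 and 5.51 to 8.35 and 8.28, by 2.71 (SE 0.15, adjusted p = 5.27e-05). Of 20 mucosal defence genes 4 rose and 2 fell, with 3, 3, 4 and 3 higher as each array was left out. SAA2 and SAA1, acute-phase serum amyloid proteins whose near-identical sequences may share probes, rose by 2.26 (SE 0.15, adjusted p = 0.000116) and 1.11 (SE 0.15, adjusted p = 0.00364). The genes that fell in the mucosal list were PI3 and LCN2, the inhibitor elafin and a siderophore-binding lipocalin, with differences of -0.77 and -0.60 (adjusted p = 0.0258 and 0.0454, and 0.0301 to 0.153 and 0.0521 to 0.191 over the arrays left out). LCN2 was named after its value was seen.

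Of the complement list 4 of 18 rose and 2 fell. C1S and C1R, the paired proteases that start the classical pathway, rose from 4.99 and 5.44 to 8.47 and 8.26 and from 6.71 and 6.73 to 9.16 and 9.30, by 3.15 (SE 0.19, adjusted p = 5.92e-05) and 2.51 (SE 0.15, adjusted p = 5.27e-05). CFB, factor B of the alternative pathway, rose from 8.06 and 8.27 to 9.89 and 9.82, by 1.69 (SE 0.15, adjusted p = 0.000514), and CLU, the inhibitor clusterin, by 1.19 (SE 0.16, adjusted p = 0.00333). These genes encode soluble proteins that cells secrete. CD59, a membrane inhibitor of the terminal complex, fell from 10.50 and 10.53 to 9.56 and 9.45, a difference of -1.01 (SE 0.14, adjusted p = 0.00469). The other gene that fell was C3AR1, the receptor for the C3a fragment, named after its value was seen, from 5.52 and 6.07 to 3.43 and 4.62, a difference of -1.78 (SE 0.35, adjusted p = 0.0186), with an adjusted p of 0.00302 to 0.175 over the arrays left out. The number higher was 4, 4, 4 and 4 with each array left out.

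Of 36 interferon-induced genes 8 rose and 3 fell (median 0.22), with 6, 4, 4 and 5 higher when each array was left out. OAS1, which makes the activator of RNase L, read 6.10 and 6.12 against 7.80 and 7.77, a rise of 1.68 (SE 0.14, adjusted p = 0.000416). IFITM1 and IFI44L, induced by type I interferon, rose by 1.29 (SE 0.17, adjusted p = 0.0035) and 1.23 (SE 0.16, adjusted p = 0.00276). The 3 that fell were SAMD9, DDX60 and ISG20, all named after their values were seen, with differences of -1.30, -1.09 and -0.62 (adjusted p = 0.0174, 0.0352 and 0.0456, and 0.0178 to 0.131, 0.036 to 0.247 and 0.0469 to 0.21 over the arrays left out). In antigen processing 3 of 15 genes rose and 0 fell (median 0.30), a count of 2, 1, 1 and 1 higher with each array left out. PSMB9, a subunit of the immunoproteasome, rose from 5.66 and 5.64 to 7.10 and 7.19, by 1.49 (SE 0.17, adjusted p = 0.00147).

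The start region of OAS1 is shown for the interferon element in it, in capitals and on the strand opposite to the letters searched (RefSeq, GRCh38.p14, chr12:112906712-112907011, plus strand).
OAS1: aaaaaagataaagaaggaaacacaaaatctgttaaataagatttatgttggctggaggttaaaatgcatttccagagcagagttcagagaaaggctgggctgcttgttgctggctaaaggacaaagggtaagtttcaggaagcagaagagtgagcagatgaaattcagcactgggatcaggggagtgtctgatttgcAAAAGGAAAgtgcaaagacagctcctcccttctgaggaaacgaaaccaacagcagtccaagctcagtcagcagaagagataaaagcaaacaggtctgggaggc
These letters occur in 10.6% of all promoters.

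Chemokines and interleukin-1 genes changed in both directions. CCL20, a chemokine that draws dendritic cells and lymphocytes, fell from 6.66 and 7.25 to 5.01 and 4.89, a difference of -2.01 (SE 0.20, adjusted p = 0.000865). IL1B, interleukin-1 beta, fell from 8.61 and 8.49 to 6.79 and 6.82, a difference of -1.74 (SE 0.15, adjusted p = 0.000476). The receptor IL1R1 rose, from 4.60 and 5.02 to 6.22 and 6.56, by 1.58 (SE 0.19, adjusted p = 0.00215). Of 20 chemokine genes 2 rose and 5 fell, with 0, 0, 0 and 2 higher and 2, 1, 3 and 2 lower when each array was left out. Of 18 interleukin-1 family genes 3 rose and 3 fell, with 1, 1, 1 and 1 higher and 2, 1, 3 and 2 lower when each array was left out. The accessory receptor IL1RAP was among those that fell (-0.76), with an adjusted p of 0.0284 and of 0.0407 to 0.173 over the arrays left out.

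FOXO transcription factors are held inactive by AKT downstream of PI3K. Of 26 genes that they are known to induce, 10 rose and 4 fell (median 0.34), and with each array left out 7, 4, 6 and 5 were higher and 2, 1, 1 and 2 lower. FBXO32, the ubiquitin ligase atrogin-1, read 4.69 and 5.26 on the control arrays and 6.73 and 7.25 with SHP2 miR1, a rise of 2.01 (SE 0.23, adjusted p = 0.00167). PDK4, which shuts off pyruvate entry to the citric acid cycle, rose from 4.63 and 5.07 to 6.41 and 6.58, by 1.65 (SE 0.18, adjusted p = 0.00132). TNFSF10, the death ligand TRAIL, rose from 4.35 and 3.97 to 5.85 and 5.79, by 1.66 (SE 0.18, adjusted p = 0.00122). These genes act in protein breakdown, fuel choice and cell death. BCL6, a repressor of the BTB zinc finger class, rose by 1.26 (SE 0.20, adjusted p = 0.00797). The members that fell were ERBB3, the insulin receptor substrate IRS2, the stress-induced GADD45A and the factor KLF6. Of these IRS2, GADD45A and KLF6 fell by 0.94, 0.89 and 0.70 (adjusted p = 0.0255, 0.00807 and 0.0236, and 0.0232 to 0.129, 0.0168 to 0.0762 and 0.0363 to 0.143 over the arrays left out). DEPTOR, an inhibitor of mTOR in the PI3K and AKT list, rose from 4.74 and 5.05 to 6.01 and 6.19, by 1.20 (SE 0.17, adjusted p = 0.00384).

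TNFSF10 was the member of smallest p of the FOXO list with a promoter in the table, and its window is shown because it holds no FOXO site as searched but an interferon element, in capitals (RefSeq, GRCh38.p14, chr3:172523381-172523680, minus strand).
TNFSF10: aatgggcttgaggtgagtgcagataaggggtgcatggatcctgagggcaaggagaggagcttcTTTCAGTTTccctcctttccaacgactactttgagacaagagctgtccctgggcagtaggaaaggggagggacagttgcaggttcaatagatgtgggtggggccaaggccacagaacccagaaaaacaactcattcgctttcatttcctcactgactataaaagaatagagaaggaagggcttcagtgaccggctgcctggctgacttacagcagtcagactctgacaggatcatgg
The FOXO letters occur in 3.41% of all promoters and the interferon letters in 10.6%.

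Among proliferation genes, mitosis and S phase differed in count. Of 30 mitosis genes 5 fell and 0 rose (median -0.45), and 5, 0, 1 and 0 fell with each array left out. None of 29 S phase genes passed the threshold (median -0.09). Of 28 replication-dependent histone genes 10 rose and 1 fell (median 0.51), but with each array left out 3, 1, 3 and 1 were higher and 0, 0, 0 and 0 lower. H2AC11 was the one of smallest p, at 5.69 and 5.72 against 6.74 and 6.74, a rise of 1.04 (SE 0.15, adjusted p = 0.00447), and histone genes are near copies of each other that may share probes. Neither ribosomal proteins (23 genes, median 0.19) nor ribosome biogenesis (21 genes, median -0.27) held a gene that passed by limma, and at an unadjusted p under 0.05 counts over these 3 lists were 3, 4 and 6.

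**Figure D4:**
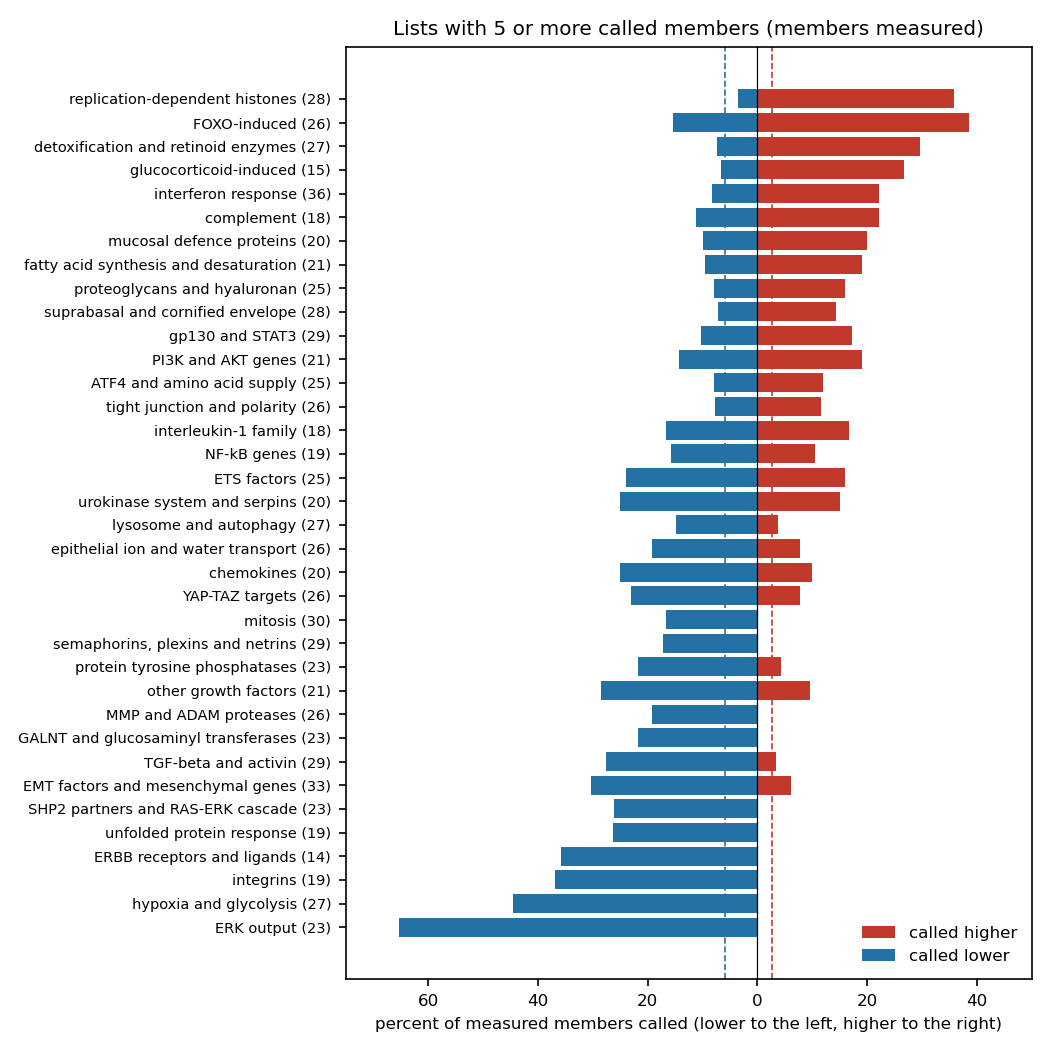
Percent of measured members that rose (right, red) and fell (left, blue) with SHP2 miR1 in each list with 5 or more members past the threshold, with the number measured in parentheses. Dashed lines mark the shares among all genes, 2.66% higher and 5.94% lower. The lists were chosen with earlier results of these data known. The ERK output list reaches farthest to the left, with 15 of 23, and FOXO-induced genes farthest to the right, with 10 of 26.

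A few receptors and channels better known from nerve and muscle had large falls, but their lists as a whole did not fall. Of 24 neurotransmitter receptor genes 12.5% passed, beside 8.6% of all genes, with a median difference of 0.17 and 7 genes below 0. Of 34 potassium and calcium channel genes 2 rose and 2 fell (11.8%, median 0.16). CHRNA9, an acetylcholine receptor subunit, read 7.41 and 7.67 on the control arrays and 3.88 and 4.14 with SHP2 miR1, a difference of -3.53 (SE 0.18, adjusted p = 3.92e-05). GABRA2, a subunit of the GABA receptor, read 7.58 and 7.75 against 4.65 and 4.54, a difference of -3.07 (SE 0.15, adjusted p = 3.88e-05). HTR1D, a serotonin receptor, read 6.31 and 6.09 against 4.89 and 4.55, a difference of -1.48 (SE 0.20, adjusted p = 0.00385). These 3 were the only members of 24 neurotransmitter receptor genes to pass, and the count was 3, 3, 3 and 3 with each array left out. The epithelial ion and water transport list, which also holds RHCG, had 2 of 26 higher and 5 lower (1, 1, 1 and 1 higher and 5, 3, 3 and 3 lower with each array left out). AQP9, a water and glycerol channel, fell from 7.05 and 7.77 to 4.90 and 4.84, a difference of -2.54 (SE 0.23, adjusted p = 0.000546). TRPC1, a cation channel, fell by 1.49 (SE 0.17, adjusted p = 0.00153), and KCNK5, a leak potassium channel, rose from 4.82 and 4.84 to 6.41 and 6.10, by 1.43 (SE 0.18, adjusted p = 0.00261). Outside these lists TEK, the angiopoietin receptor kinase TIE2, fell from 6.52 and 6.62 to 4.44 and 4.39, a difference of -2.16 (SE 0.15, adjusted p = 0.000134).

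Signals and guidance genes outside these groups fell in part. BMP2, a bone morphogenetic protein, fell from 7.23 and 7.09 to 5.82 and 6.13, a difference of -1.19 (SE 0.17, adjusted p = 0.00447), and 6 of 21 growth factors outside the ERBB ligands fell with 2 higher (0, 0, 0 and 0 higher and 4, 2, 4 and 2 lower with each array left out). PLXNA2, a plexin that receives semaphorins, fell from 7.54 and 7.58 to 6.45 and 6.26, a difference of -1.21 (SE 0.15, adjusted p = 0.00225), and 5 of 29 guidance genes fell with 0 higher (2, 1, 1 and 2 lower with each array left out). SMTN, smoothelin of contractile actin, fell from 8.82 and 8.66 to 7.27 and 7.12, a difference of -1.55 (SE 0.15, adjusted p = 0.000865). Notch receptors split. NOTCH1 and NOTCH3 rose by 0.98 and 0.67 and NOTCH2 fell by 0.72 (adjusted p = 0.00962, 0.0448 and 0.0225, and 0.019 to 0.0748, 0.0582 to 0.236 and 0.0327 to 0.153 over the arrays left out). FZD4, a Wnt receptor, rose from 5.92 and 5.83 to 7.09 and 7.17, by 1.25 (SE 0.15, adjusted p = 0.00177), and of 33 Wnt pathway genes 2 rose and 2 fell (1, 1, 1 and 1 higher and 1, 0, 1 and 1 lower with each array left out).

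The cultures of every group held hydrocortisone, and of 15 glucocorticoid-induced genes 4 rose and 1 fell (3, 2, 2 and 1 higher and 1, 1, 1 and 1 lower with each array left out). SGK1, a kinase that acts on ion transport, rose from 7.22 and 7.48 to 8.32 and 8.50, by 1.06 (SE 0.16, adjusted p = 0.00698), with an adjusted p of 0.0506 without SHP2 miR1 replicate 2. SERPINA3, given above, was another, and ANGPTL4 was the one that fell. Among genes of cell death, the BCL2 family had 2 of 15 higher and 2 lower (1, 0, 0 and 0 higher and 1, 0, 1 and 1 lower with each array left out). MCL1, which protects cells from death, fell from 10.82 and 10.85 to 9.55 and 9.85, a difference of -1.13 (SE 0.16, adjusted p = 0.00475), with an adjusted p of 0.0546 without control replicate 2. BCL2L1, its relative, fell by 0.81, and the death-promoting BCL2L11 and BBC3 rose by 0.55 and 0.75 (adjusted p = 0.0143, 0.0474 and 0.0401, and 0.0232 to 0.0875, 0.0664 to 0.192 and 0.0311 to 0.237 over the arrays left out).

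The rule that took genes by size and then by smallest p also named members of no list. RPSAP52, a transcribed ribosomal protein pseudogene, fell from 7.25 and 7.64 to 4.54 and 4.47, a difference of -2.94 (SE 0.17, adjusted p = 5.27e-05), and RP1, a microtubule-associated protein, from 5.93 and 5.73 to 3.20 and 3.56, a difference of -2.45 (SE 0.23, adjusted p = 0.000562). In the class of 1.5 to 2 log2 units DAW1, a factor of ciliary dynein assembly, fell from 6.17 and 6.34 to 4.12 and 4.43, a difference of -1.97 (SE 0.17, adjusted p = 0.000445). In that class CYFIP2, a regulator of actin assembly, rose from 5.36 and 5.44 to 7.29 and 7.22, ETNK2, an ethanolamine kinase, from 6.60 and 6.42 to 8.31 and 8.37, and SELENBP1, a selenium-binding protein, from 7.83 and 7.61 to 9.48 and 9.39. Their differences were 1.85, 1.83 and 1.71, each with an SE of 0.15 or 0.16.

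In the class of 1 to 1.5 the genes of smallest p that rose included TSPAN1, a tetraspanin of secretory epithelia, from 8.35 and 8.60 to 9.81 and 9.79, CADM3, a nectin-like adhesion molecule, from 6.29 and 6.43 to 7.66 and 7.83, and APMAP, from 7.78 and 7.93 to 9.40 and 9.26. Those that fell included MYO10, the motor of filopodia, from 7.97 and 8.15 to 6.54 and 6.61, NAV1, a microtubule guidance protein, from 8.15 and 8.08 to 6.75 and 6.61, FARP1, a FERM domain protein, from 8.34 and 8.37 to 7.02 and 6.97, and STK17A, a death-associated kinase, from 8.97 and 8.96 to 7.51 and 7.54. Their adjusted p lay between 0.000767 and 0.00177. Not all genes taken by their p in the class of 0.7 to 1 are described. One of them, CYP39A1, an oxysterol hydroxylase, rose from 4.51 and 4.64 to 5.57 and 5.52, by 0.97 (SE 0.15, adjusted p = 0.00603). Below 0.7, PROM2 and RAB6A were among the genes named by their p, and both lost their call. PROM2, a relative of prominin, rose from 5.35 and 5.26 to 6.03 and 5.98, by 0.70 (SE 0.14, adjusted p = 0.022), and RAB6A, a GTPase of the Golgi, fell from 8.31 and 8.35 to 7.67 and 7.64, a difference of -0.68 (SE 0.14, adjusted p = 0.0236), and over the arrays left out their adjusted p was 0.0358 to 0.148 and 0.0375 to 0.144.

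Genes past the threshold lay next to each other on the chromosome in 19 runs of 3 or more, which hold 60 of the 18325 genes placed. In 7 runs the genes rose. These were ADH1A, ADH1B and ADH1C on chromosome 4, C1S, C1R, C1RL and LPCAT3 on chromosome 12, ALDH3A1, SLC47A2 and ALDH3A2 on chromosome 17, and PSMB8, TAP1 and PSMB9 on chromosome 6. The other risen runs were 4 histone genes on chromosome 6 (H2AC13, H3C10, H2AC14 and H2BC14), the small nucleolar RNAs SNORA71A, SNORA71C and SNORA71D on chromosome 20, and FZD4, TMEM135 and RAB38 on chromosome 11. In 12 runs the genes fell, among them TMEM156, FAM114A1 and KLHL5 on chromosome 4 (-2.05, -1.25 and -1.09), and NEMP2, NAB1 and STAT4 on chromosome 2 (-1.72, -0.98 and -2.003). Of the genes in these 9 runs, LPCAT3, C1RL, SLC47A2, ALDH3A2, PSMB8, TAP1, TMEM135, RAB38, KLHL5, NAB1 and all histone and SNORA71 genes lost their call without at least 1 array. Their highest adjusted p over the arrays left out lay between 0.051 (ALDH3A2) and 0.267 (SNORA71D). The runs of ADH1, SNORA71 and histone genes are close copies, for which shared probes cannot be told apart from shared change. Across autosomes the share of genes past the threshold ran from 3.98% on chromosome 19 to 14.8% on chromosome 18.

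SHP2 miR2 is a second miR against the same gene, and its depth of knockdown cannot be told apart from its other effects. PTPN11 read 6.90 and 7.28 on its arrays, between the controls and SHP2 miR1, and the direct difference between the miRs was 1.21 (SE 0.22, adjusted p = 0.0645), which did not pass the threshold (95% interval 0.73 to 1.70). Both miRs are set against the same control arrays, so the difference between them was tested directly. In it 35 of 18377 genes (0.19%) passed, 28 higher and 7 lower with SHP2 miR2, and 32 of the 35 were among the 1581 that differed between SHP2 miR1 and the control. Among the genes named here 20 passed. RHCG read 7.08 and 6.48 with SHP2 miR2 against 4.47 and 4.77 with SHP2 miR1, a difference of 2.16 (SE 0.21, adjusted p = 0.00545), and NT5E read 9.44 and 9.25 against 7.44 and 7.40, a difference of 1.92 (SE 0.15, adjusted p = 0.00499). LTF read 8.98 and 8.19 with SHP2 miR2 against 10.48 and 10.31, a difference of -1.81 (SE 0.24, adjusted p = 0.0304). For all 20 genes the SHP2 miR2 arrays lay between those of the other groups. Both tests share the SHP2 miR1 arrays, which favours this position and the overlap of 32 of 35 genes. The genes were also named largely for their difference between SHP2 miR1 and the control. SPX, the peptide hormone spexin, read 6.46 and 6.34 with SHP2 miR2 and 4.85 and 4.73 with SHP2 miR1, a difference of 1.61 (SE 0.15, adjusted p = 0.00499), and its control values were 6.58 and 6.73. PHLDA1, the feedback gene, read 7.54 and 7.67 with SHP2 miR2, against 7.76 and 7.74 on the control arrays and 6.56 and 6.65 with SHP2 miR1, with a direct difference of 1.001 (SE 0.15, adjusted p = 0.0421). The count of 35 depended on single arrays, and with each of the 6 left out it was 12 without either control array, 15 and 11 without SHP2 miR1 replicate 1 and 2, and 0 and 10 without SHP2 miR2 replicate 1 and 2.

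**Figure D5:**
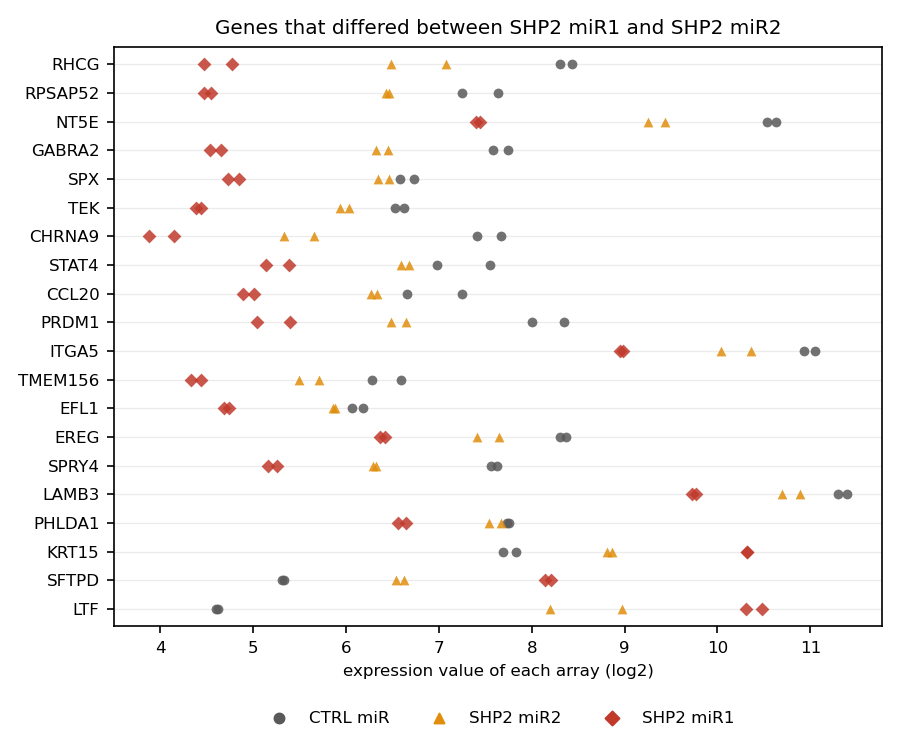
Expression value (log2) on each control (circles), SHP2 miR2 (triangles) and SHP2 miR1 (diamonds) array for the 20 named genes that differed between the SHP2 miRs. The SHP2 miR2 arrays lie between the other groups for all 20 genes, with those of PHLDA1 (7.54 and 7.67) close to its controls (7.76 and 7.74). The way the genes were chosen favours this position.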

How the data were processed

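Total RNA of 6 samples was hybridised to 1 array each, of the type HuGene-1_0-st-v1, per the labels' protocols. The authors deposited 1 table of processed values on a log scale, read here as log2 from their range. R 2.10 and oligo 1.8 are named in the submitters' processing notes, while the genome build, probe summary, normalization and background correction remain not given in the sources used here. The table holds no counts, and precision is limited by the number of arrays.

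Of 28869 probe sets, 19310 had exactly 1 gene symbol in the platform annotation, 1752 several and 7807 none. The brightest probe set of each gene was kept, giving 18377 genes. A linear model with 1 mean per group was fitted to all 6 arrays, without a replicate block (limma 3.58.1, R 4.3.3; degrees of freedom 3 residual, 6.10 prior). Contrasts were SHP2 miR1 minus CTRL miR and, directly, SHP2 miR2 minus SHP2 miR1, with Benjamini-Hochberg adjustment over all genes and a threshold of 0.05. The procedure was tested on simulated data.

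The labels do not say that replicate numbers pair arrays, and deviations of same-numbered arrays correlated at 0.07 (control and SHP2 miR1), 0.14 (control and SHP2 miR2) and 0.01 (both SHP2 miRs). The 87 gene lists, 1662 of their 1823 genes measured, and the members named were chosen with earlier results of these data known. Genes named were PTPN11 and receptor, keratin and lineage genes in every case, up to 5 passing genes per list, and runs of neighbouring genes. The rule also took the 8 largest changes each way and the smallest p in each class of size. Both were taken only from passing genes whose groups did not overlap. Of the 370 genes that the rule took, not all are described. Promoters are from RefSeq (GRCh38.p14). Alternatives covered variance prior, dim genes (below 4.76, the 40th percentile), scaling, probe set choice, array weights, the block and each array left out.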

Additional observations from a re-analysis of the deposited data

Results flagged for a closer look

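The direct comparison of the SHP2 miRs, by limma with Benjamini-Hochberg adjustment over 18377 genes, passed the threshold for 20 of the genes named, and these are marked because the effect against the control then differed between the miRs. Higher with SHP2 miR2 than with SHP2 miR1 were RHCG by 2.16 log2 units, RPSAP52 by 1.94, NT5E by 1.92, GABRA2 by 1.797, SPX by 1.61, TEK by 1.57 and CHRNA9 by 1.48. In the same direction STAT4 differed by 1.37, CCL20 by 1.36, PRDM1 by 1.35, ITGA5 by 1.23, TMEM156 by 1.21, EFL1 by 1.15, EREG by 1.13, SPRY4 by 1.09, LAMB3 by 1.05 and PHLDA1 by 1.001. Lower with SHP2 miR2 were KRT15 (-1.48), SFTPD (-1.60) and LTF (-1.81). EFL1, a GTPase of ribosome maturation, read 4.69 and 4.74 with SHP2 miR1, 5.85 and 5.88 with SHP2 miR2 and 6.06 and 6.19 in the control. No other 2 groups of the series share this contrast, and groups of 2 arrays are too small to test a single array as an outlier.

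Probe sets without exactly 1 gene symbol were left out of every comparison above. When all 28869 probe sets were tested together, 185 of these unnamed or shared probe sets passed the threshold between SHP2 miR1 and the control.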

How the results depend on the processing

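The fall of PTPN11 kept its direction and passed under every alternative run. Against 1581 genes, 2786 passed with a mean-variance trend (809 higher, 1977 lower) and 880 with all probe sets tested (269 higher, 611 lower), where more features share the adjustment. With quantile scaling 63.1% of calls were lower and with cyclic loess, chosen after seeing the data, 64.6%, against 69.1%. With 1 array left out the count lay between 269 and 1308, of higher genes between 97 and 402, of lower genes between 172 and 906, and of differences of at least 1 between 263 and 660 (435 with all arrays). With the replicate number as a block 1709 genes passed, though the numbers are not known to pair arrays. The count between the SHP2 miRs, 35, became 446 with the trend, 95 with dim genes left out, 69 with centred arrays, 55 with array weights, 12 with the 4 arrays compared, 12 with the replicate block, 11 with all probe sets and 0 to 15 with 1 array left out. The cause of these moves was not tested.

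Of 178 genes named as having passed, 122 passed with every array left out and 56 did not, and none changed direction. Under the 11 other settings 156 of them kept their call throughout and 22 lost it under at least 1. Direction was not fixed for 4 genes that never passed: CDH1 (0.074 with quantile scaling, 0.072 with cyclic loess, and -0.119 to 0.024 with 1 array left out), EGFR (-0.058 centred, -0.055 to 0.101 with 1 array left out), EPCAM (-0.061 to 0.403 with 1 array left out) and PGR (-0.107 with quantile scaling, -0.111 with cyclic loess, -0.057 centred, and -0.209 to 0.256 with 1 array left out). Signal near background limits dim genes, and 2 arrays a group limit all.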
